A study of Dunaliella salina with 6 samples.

Results

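Peroxide-removing enzymes of the heme peroxidase, catalase and glutathione peroxidase families were examined in *Dunaliella salina* Bardawil, a wall-less, halotolerant green alga. Genes were chosen by their Pfam domain accessions in the deposited annotation: PF00141 for heme peroxidases, PF00199 for catalase and PF00255 for glutathione peroxidases. This gave 8 genes of the 25081 in the table: 5 heme peroxidases, among them APX1A and APX1B, the catalase CAT1, and the glutathione peroxidases GPX3 and GPX4. The rule names domains and no expression value, but it was written with earlier results of these data known. Vegetative wild-type cells (strain UTEX LB 2538) stood for 3 days on shakers under constant light, at 1 M NaCl in the medium. One group of 3 cultures received 0 µM added iron and the other group of 3 cultures received 1.5 µM added iron, and each culture gave 1 library of poly(A) RNA. The groups are defined by what was added to the medium, and the iron content of the cells was not used here.

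Hydrogen peroxide forms in photosynthesis, in respiration and from superoxide by dismutation, and the 3 families remove it by different chemistry. Heme peroxidases and catalase carry an iron-containing heme at the active site. Ascorbate peroxidases are heme peroxidases that take electrons from ascorbate, whereas catalase splits peroxide without a further reductant. Glutathione peroxidases contain no heme. They use a cysteine or selenocysteine, and many plant members take electrons from thioredoxin rather than glutathione.

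Values are FPKM, fragments mapped per kb of transcript and scaled to the mapped reads of the library, which can be compared between genes because they are scaled by length. Depth, estimated from the lowest FPKM values, was 18.4 to 20.8 M reads per library without added iron and 19.0 to 24.6 M reads with it. The 15 photosynthetic marker genes differed between the groups: 12 of the 13 tested were called lower without added iron and none higher, with a median log2 fold change of -0.82. Their summed FPKM was 25962 to 28795 without added iron and 41831 to 48841 with it, and its part in the results on the peroxidase genes was not tested. LHCBM1, a light-harvesting protein, was between 5813 and 6472 FPKM without added iron and between 8687 and 9794 FPKM with it. FDX11 was lowest among the tested markers, at 4.35 to 7.92 FPKM without added iron and 18.96 to 22.6 FPKM with it. The markers PSBO1A and PSBO1B stayed at or below 0.254 FPKM in all 6 libraries, while their paralog PSBO1C exceeded 1065 FPKM in each. Of 13909 genes with a mean of at least 1 FPKM, limma called 1306, or 9.39%, different between the groups, the threshold being a Benjamini-Hochberg adjusted p of 0.05. Lower levels without added iron were called for 5.20% of the genes tested and higher levels for 4.19%. Of these 1306 called genes 44.6% were higher. With each column rescaled to the same sum, 3736 genes were called, and 85.3% of those were higher. That scaling moved the median log2 fold change of all genes tested to 0.17. In replicates 1 and 2 alone 1668 genes were called, 60.6% of those higher.

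Without added iron, the transcripts of 3 of the 8 genes fell, and none rose at the threshold. APX1A fell the most, CAT1 next, and the heme peroxidase gene DsB_g22567 after it. Of the 8 genes, 7 passed the filter on low values and were tested, so 3 of 7 were called, all lower, beside a background of 5.20% of all genes called lower. The median log2 fold change of the 7 genes was -0.24, against 0.00028 over all genes tested. At an unadjusted p under 0.05 by limma 5 of the 7 differed, where 25.0% of all genes tested did. Fold changes divide the cultures without added iron by those with it, in log2(FPKM + 1), and so understate changes of low values. In bulk RNA, fewer transcripts per cell and fewer cells that carry them cannot be told apart.

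**Figure D1:**
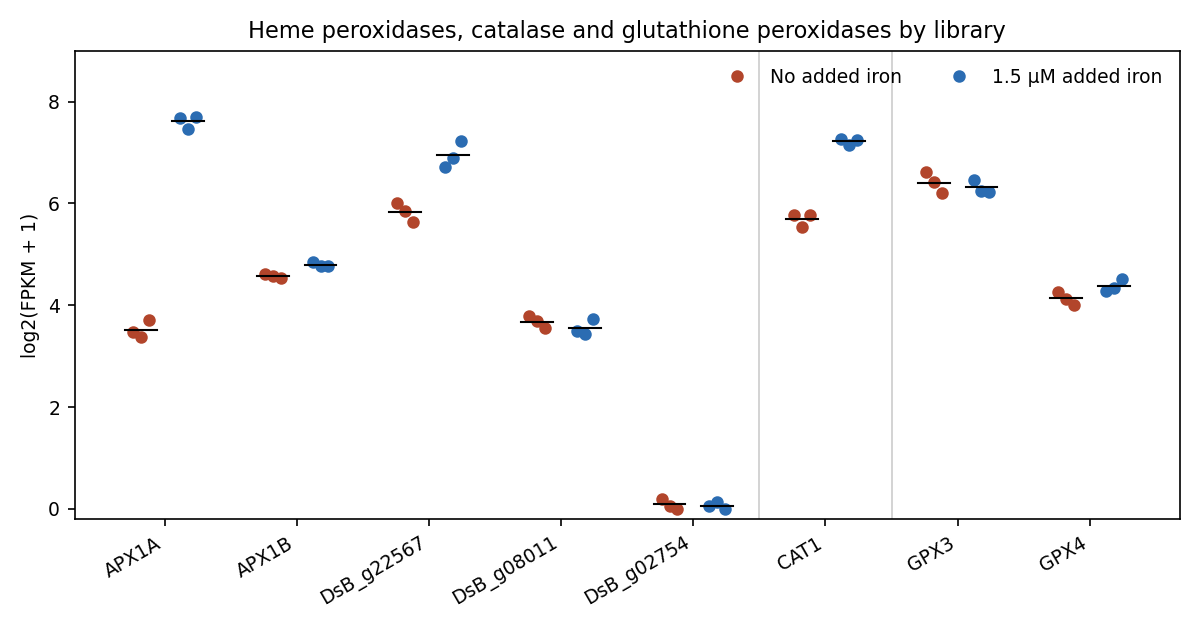
Level of each gene in each library as log2(FPKM + 1), with cultures without added iron to the left of those with 1.5 µM added iron. Points are libraries, black bars are means of 3 libraries, and grey lines separate heme peroxidases, catalase and glutathione peroxidases. APX1A, DsB_g22567 and CAT1 show the widest gaps between groups, and DsB_g02754 lies near 0 in all 6 libraries.

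APX1A (DsB_g12482), named as an ascorbate peroxidase, had 10.1, 9.33 and 12.1 FPKM in replicates 1, 2 and 3 without added iron, against 203, 176 and 207 FPKM in replicates 1, 2 and 3 with added iron. Each library without added iron lay far below each library with it. The means were 10.5 ± 1.41 FPKM without added iron and 196 ± 17.04 FPKM with 1.5 µM iron (SD, n = 3 each), an 18.6-fold higher mean with added iron. On the log2(FPKM + 1) scale the difference was -4.10 (SE 0.119, 95% interval -4.37 to -3.82, limma adjusted p = 6.32e-07). APX1A ranked 2 among all 13909 genes tested when these were ordered from the largest fall. The low values rested on an estimated 229 to 319 reads per library without added iron and 4241 to 6499 reads with it. The gene lies on chromosome 6 (minus strand, 23496930 to 23510447) in the authors' assembly. Its model has 11 exons with 1471 nt of exon sequence, 927 nt of it coding, and no other model overlaps it.

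CAT1 (DsB_g05388) is the only gene in the annotation with the catalase domain. It had 53.3, 45.2 and 53.7 FPKM in replicates 1, 2 and 3 without added iron, against 152, 140 and 151 FPKM with added iron. The groups did not overlap. CAT1 averaged 50.7 ± 4.76 FPKM without added iron and 148 ± 6.72 FPKM with 1.5 µM iron (SD, n = 3 each), a log2 fold change of -1.53 (SE 0.103, 95% interval -1.77 to -1.29, limma adjusted p = 0.000117). Its model, on chromosome 3 (minus strand, 8170730 to 8184443), has 15 exons, 2455 nt of exon sequence and a coding length of 1518 nt, and it also carries PF06628, a catalase-related domain.

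DsB_g22567 has a heme peroxidase domain but no symbol. Its level was 63.8, 56.4 and 49.0 FPKM in replicates 1, 2 and 3 without added iron, against 104, 118 and 149 FPKM with added iron. The groups did not overlap, although the libraries with added iron were spread more widely than those of the other called genes, with an SD of 22.9 FPKM around a mean of 124 FPKM. Without added iron the mean was 56.4 ± 7.41 FPKM (SD, n = 3). The log2 fold change was -1.11 (SE 0.154, 95% interval -1.47 to -0.76, limma adjusted p = 0.00436). The gene lies on chromosome 14 (minus strand, 5447684 to 5458361), and has 2 annotated transcripts, of 11 exons with 1074 nt of coding sequence and of 9 exons with 984 nt. Only the value of the whole gene was used here, so a shift between the 2 transcripts was not analysed.

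The other heme peroxidases did not pass the threshold. APX1B (DsB_g18457), the second gene named as an ascorbate peroxidase, had 23.4, 22.8 and 22.2 FPKM in replicates 1, 2 and 3 without added iron, against 28.0, 26.4 and 26.2 FPKM with added iron. Its groups did not overlap and the spread within its groups was small, at percentile 2.39 of the residual SDs of all genes tested, but the log2 fold change of -0.23 missed the threshold (SE 0.0798, 95% interval -0.41 to -0.04, limma adjusted p = 0.123). With each column rescaled to the same sum it was -0.05. APX1B lies on chromosome 10 (minus strand, 19011619 to 19025904) and has 10 exons. DsB_g08011 had 12.9, 11.8 and 10.8 FPKM without added iron, against 10.2, 9.75 and 12.3 FPKM with it. The gene lies on chromosome 4 (plus strand, 12869351 to 12886433) and has 7 exons. Its groups overlapped, and the log2 fold change was 0.13 (95% interval -0.12 to 0.38, limma adjusted p = 0.510). With each column rescaled to the same sum it was called higher, at 0.31 with an adjusted p of 0.0219, where the median of all genes was 0.17.

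DsB_g02754 was the member under the filter, and it was close to undetected. It was listed at 0.144, 0.0459 and 0 FPKM in replicates 1, 2 and 3 without added iron, and at 0.0417, 0.0930 and 0 FPKM with added iron, which corresponds to at most 2.45 estimated reads in any library. No difference could be seen at this depth. It lies on chromosome 2 (minus strand, 6987010 to 6991271). Its model differs from the other heme peroxidase models in having no annotated untranslated region, so that all 1125 nt of its 7 exons are coding, and it has the shortest span of the 8 genes, 4262 nt.

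Both glutathione peroxidase genes were expressed in all libraries and neither passed the threshold. GPX3 (DsB_g23806) had 96.6, 84.5 and 72.5 FPKM in replicates 1, 2 and 3 without added iron, against 87.6, 75.1 and 74.2 FPKM with added iron. The groups overlapped, and the log2 fold change was 0.09 (95% interval -0.21 to 0.39, limma adjusted p = 0.714). GPX4 (DsB_g20307) had 18.3, 16.5 and 15.1 FPKM without added iron, against 18.4, 19.2 and 21.9 FPKM with it. Its groups were separated by a narrow margin, and the log2 fold change of -0.24 did not pass (95% interval -0.48 to -0.0020, limma adjusted p = 0.197). It passed at -0.25 with quantile normalization (adjusted p = 0.0403). Both models have 7 exons and carry PF00578, a domain shared with peroxiredoxins, beside PF00255. GPX4 has a coding length of 1068 nt on chromosome 12 (plus strand, 5221722 to 5237259) and GPX3 one of 597 nt on chromosome 15 (plus strand, 10770763 to 10778560).

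**Figure D2:**
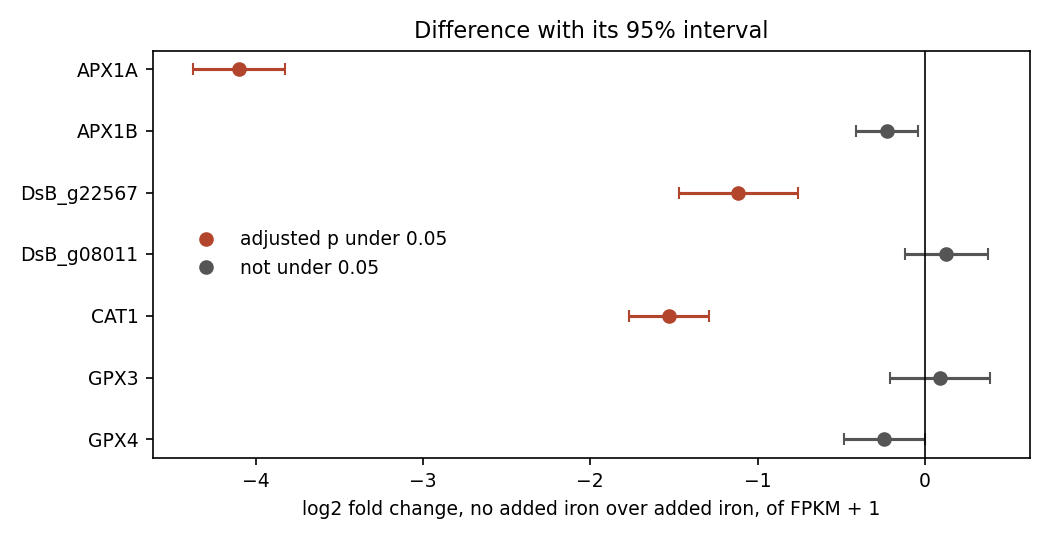
Log2 fold change of each tested gene, no added iron over added iron, with the 95% interval of the limma fit. APX1A at -4.10, CAT1 at -1.53 and DsB_g22567 at -1.11 passed an adjusted p of 0.05, and the other 4 genes lie within 0.25 of 0.

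Among the 7 tested genes, 5 had groups that did not overlap, all lower without added iron, where 30.2% of all genes tested had groups that did not overlap and 16.0% had them lower. These were APX1A, CAT1, DsB_g22567, APX1B and GPX4.

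**Figure D3:**
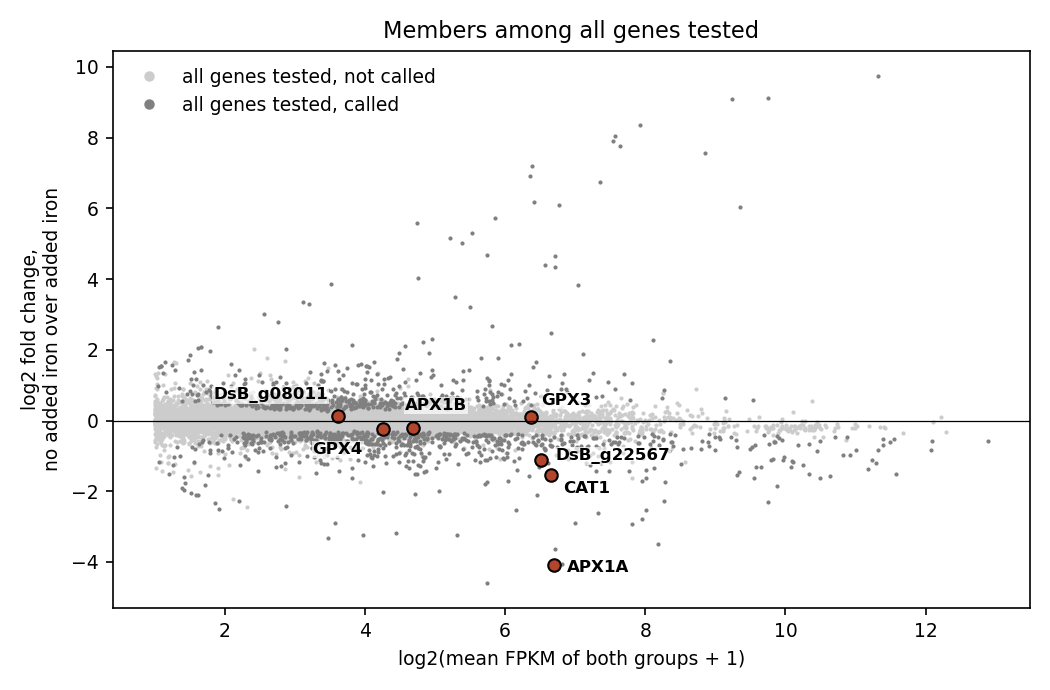
Log2 fold change, no added iron over added iron, against log2(mean FPKM of both groups + 1) for all 13909 genes tested, with the 7 tested members as labelled points. Dark grey dots are the 1306 called genes. APX1A lies at the lower edge of the whole distribution, whereas APX1B, DsB_g08011, GPX3 and GPX4 lie in its central band.

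The order of abundance changed with the medium. Without added iron, GPX3 was the most abundant of the 8 genes in every library, followed on average by DsB_g22567, CAT1, APX1B, GPX4, DsB_g08011, APX1A and DsB_g02754. In that order the neighbours DsB_g22567 and CAT1 overlapped in their ranges over libraries, as did DsB_g08011 and APX1A. With added iron, APX1A was the most abundant in every library, followed by CAT1, DsB_g22567, GPX3, APX1B, GPX4, DsB_g08011 and DsB_g02754, and of these neighbours only CAT1 and DsB_g22567 overlapped. APX1A thus ranked 7, 7 and 6 of the 8 genes in replicates 1, 2 and 3 without added iron, and 1 in each replicate with added iron. Among all genes tested, the mean level of APX1A stood at percentile 52.5 without added iron and at percentile 97.3 with it, while GPX3 stood at percentiles 94.1 and 93.5.

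The summed FPKM of the 5 heme peroxidase genes was 110, 100 and 94.1 in replicates 1, 2 and 3 without added iron, against 346, 331 and 395 with added iron. APX1A made up 9.17%, 9.30% and 12.8% of that sum without added iron and 58.8%, 53.3% and 52.5% with it. DsB_g22567 made up more of it than APX1A without added iron, with 57.8%, 56.1% and 52.1% of the sum, against 30.1%, 35.8% and 37.7% with added iron. The share of APX1B was 21.2% to 23.6% without added iron and 6.63% to 8.10% with it, although its own level moved little. Across all 8 genes, the heme-free glutathione peroxidases held 37.2% to 41.2% of the total without added iron and 14.97% to 17.5% with it. Their own sum was 115, 101 and 87.5 FPKM in replicates 1, 2 and 3 without added iron, against 106, 94.4 and 96.1 FPKM with it, and these ranges overlapped.

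**Figure D4:**
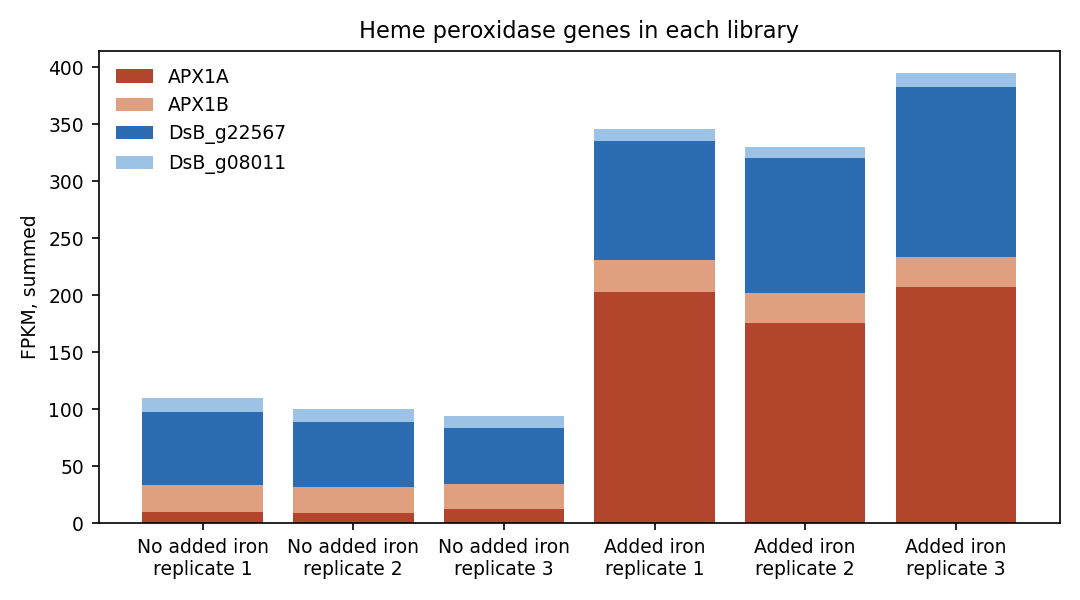
Stacked FPKM of 4 heme peroxidase genes in each library, the 3 cultures without added iron to the left of the 3 with added iron. DsB_g02754, at most 0.144 FPKM, is left out. The bars without added iron are shorter mainly in the APX1A and DsB_g22567 segments.

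The 2 ascorbate peroxidase genes were set against each other within each library. The level of APX1A was 0.432, 0.409 and 0.543 times that of APX1B in replicates 1, 2 and 3 without added iron, and 7.26, 6.68 and 7.92 times that of APX1B with added iron. On the log2(FPKM + 1) scale the difference between the 2 genes was -1.06 ± 0.200 without added iron and 2.82 ± 0.122 with 1.5 µM iron (SD, n = 3 each; two-sided exact permutation p = 0.1, the smallest that 3 against 3 libraries allow). Reaching this smallest p means only that the groups did not overlap for that pair, as held for 18 of the 21 pairs among the 7 tested genes. Adjusted over the 21 pairs it was 0.117, so no pair could pass in this test. The pairs share genes and are not independent. Pairs of all genes were not counted, so the 18 of 21 has no background share and is not read as a trait of the members. The 3 pairs with overlapping groups were APX1B with GPX4, DsB_g08011 with GPX3, and DsB_g22567 with CAT1. For the last of these the log2 difference of DsB_g22567 to CAT1 was 0.15 ± 0.239 without added iron and -0.27 ± 0.262 with 1.5 µM iron (SD, n = 3 each; two-sided exact permutation p = 0.2, 0.221 adjusted).

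A fit across all genes with every value expressed relative to APX1B in the same library, added after the values had been seen, tested whether log2 fold changes differed from that of APX1B. In that fit 29.3% of all genes were called. The log2 fold change of APX1A minus that of APX1B was -3.87 (95% interval -4.16 to -3.59, limma adjusted p = 2.92e-07). CAT1 differed from APX1B by -1.30 (limma adjusted p = 0.000157) and DsB_g22567 by -0.89 (limma adjusted p = 0.00641). GPX4 differed from APX1B by -0.02 (95% interval -0.27 to 0.23, limma adjusted p = 0.915). GPX3 differed by 0.32 (95% interval 0.06 to 0.58, limma adjusted p = 0.0650), and DsB_g08011 passed narrowly at 0.35 (limma adjusted p = 0.0447). Each of these differences includes the log2 fold change of APX1B itself, -0.23, and that of DsB_g08011 alone was 0.13.

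**Figure D5:**
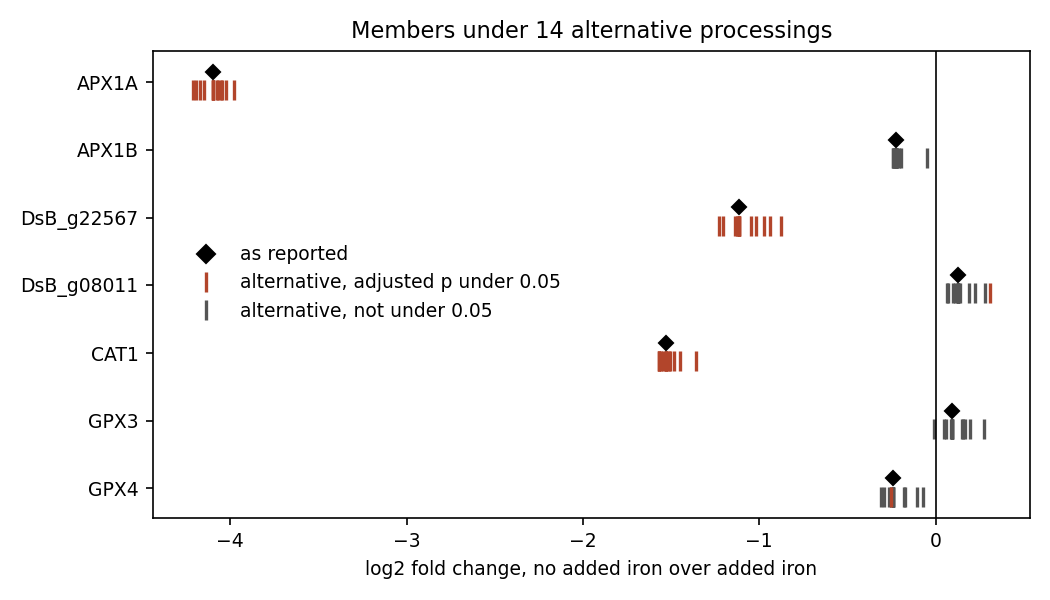
Log2 fold change of each tested gene, no added iron over added iron, as reported (diamonds) and under 14 alternative processings (ticks). Every tick of APX1A, CAT1 and DsB_g22567 had an adjusted p under 0.05. Their ranges were -4.21 to -3.98, -1.57 to -1.36 and -1.23 to -0.88.

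The low values of replicate 3 in both groups came closer to whole reads than those of replicates 1 and 2, with 41.2% and 41.3% of values within 0.05 of a whole read, against 32.4% to 34.1%. Within replicates 1 and 2 alone the log2 fold change of APX1A was -4.15 (limma adjusted p = 8.02e-05), that of CAT1 was -1.55 (limma adjusted p = 0.00264) and that of DsB_g22567 was -0.88 (limma adjusted p = 0.0125). Between the 2 libraries of replicate 3, which allow no test, the log2 differences were -3.99 for APX1A, -1.48 for CAT1 and -1.59 for DsB_g22567. APX1B gave -0.22 in replicates 1 and 2 and -0.23 in replicate 3. DsB_g08011 differed in sign, with 0.28 in replicates 1 and 2 and -0.18 in replicate 3, as did GPX3 with 0.15 and -0.03. GPX4 gave -0.11 in replicates 1 and 2 and -0.51 in replicate 3.

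Outside the choice of members, the 8 genes lay on 8 different chromosomes, and no other model overlapped any of them. The annotation places 4 of the 5 heme peroxidases in the carbohydrate-active enzyme family AA2, all but DsB_g22567. Coding lengths of the heme peroxidases ran from 831 nt in APX1B to 1125 nt in DsB_g02754. APX1A and APX1B differ in their model mainly downstream of the coding sequence, with 501 nt of 3′ untranslated region in APX1A and 1409 nt in APX1B. Exons made up 10.9% of the span of APX1A and 16.2% of that of APX1B. Neither gene had a close neighbour. The nearest model to APX1A was DsB_g12483, 4652 nt away in head-to-head orientation and listed at 0 FPKM in all 6 libraries.

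Close head-to-head neighbours were found for DsB_g08011, GPX4 and GPX3. GPX3 lies 167 nt from DsB_g23805, which has no symbol or Pfam domain. That neighbour had 77.9, 81.7 and 55.2 FPKM in replicates 1, 2 and 3 without added iron, against 52.0, 55.7 and 64.3 FPKM with it, so that its groups overlapped as those of GPX3 did. GPX4 lies 294 nt from DsB_g20306, which had 19.9, 18.3 and 17.9 FPKM without added iron and 22.1, 20.0 and 23.6 FPKM with it. The groups of DsB_g20306 were separated only narrowly, at 19.9 against 20.0 FPKM, and were lower without added iron, as in GPX4. DsB_g08011 lies 554 nt from HXT1, a gene with sugar transporter domains, which had 36.1 to 42.8 FPKM without added iron and 44.2 to 49.2 FPKM with it. Of all genes tested, 16.0% had groups that did not overlap and were lower without added iron. The sources used here do not say whether reads were counted by strand.

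The genes most like APX1A over the 6 libraries, by Pearson r of log2(FPKM + 1) among the tested genes with the members left out, were DsB_g21645 (r = 0.9988), NDUFAF3 (r = 0.9986), SDH2 (r = 0.9984), DsB_g12305 (r = 0.9983) and FUM1 (r = 0.9981). Among the members, CAT1 had an r of 0.997 with APX1A. Because the 6 libraries form 2 groups, r mostly reflects the gap between the groups, and 63 genes outside the members had an r above 0.99. The sizes of the fall differed widely among the 5 named genes, with log2 fold changes of -4.06 for DsB_g21645, -1.30 for NDUFAF3, -1.99 for SDH2, -1.76 for DsB_g12305 and -2.01 for FUM1. DsB_g21645, which carries a Rieske iron-sulfur domain, was closest to APX1A in level as well, with 11.6, 9.06 and 14.98 FPKM in replicates 1, 2 and 3 without added iron, against 219, 193 and 218 FPKM with it.

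Genes that supply or recycle the reductants of these enzymes were counted by lists of Pfam accessions or symbols. Sizes of rises and falls in these and the further lists below are log2 fold changes. The ascorbate list held 5 genes, of which 1 rose and 2, VTC2 and VTC4, fell. Over all genes tested, 4.19% were called higher and 5.20% lower. MDAR1, a monodehydroascorbate reductase, an enzyme that regenerates ascorbate after ascorbate peroxidase has oxidized it, had 141, 153 and 81.4 FPKM in replicates 1, 2 and 3 without added iron, against 38.3, 39.9 and 46.3 FPKM with added iron. Its log2 fold change was 1.52 (SE 0.225, limma adjusted p = 0.00581), and its lowest library without added iron, replicate 3, still exceeded all with added iron. VTC2, which in Arabidopsis commits sugar nucleotides to ascorbate synthesis, fell by 0.41 (limma adjusted p = 0.0313), with 42.4, 40.9 and 41.2 FPKM without added iron, against 56.4, 51.0 and 58.9 FPKM with it. VTC4 fell by 0.55. Its VTC domain is known from the yeast complex that makes polyphosphate, so its symbol does not place it in ascorbate metabolism, and VTC1 carries a domain of that complex as well.

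Glutathione synthesis and disulfide reductase genes did not change at the threshold. Of 6 genes, which are GSH1, GSH2, GSR1, GSR2 and the dihydrolipoamide dehydrogenases DLD1 and DLD2 with a shared domain, none was called by limma over all genes, and 1 had an unadjusted p under 0.05, where 25.0% of all genes tested had one. Their log2 fold changes ran from -0.50 to 0.16. Of 12 further genes with peroxiredoxin domains, thiol peroxidases without heme, 2 rose and 1 fell, with a median of 0.02. The shares over all genes tested, here and for the superoxide dismutases below, were 4.19% called higher and 5.20% called lower. PRX2 rose by 0.65 and PRX1 by 0.57, and PRX4 fell by 0.81. PRX1 had 948, 910 and 790 FPKM in replicates 1, 2 and 3 without added iron, against 570, 564 and 652 FPKM with it, well above any of the 8 peroxidase genes. Of the 4 superoxide dismutase genes, which make hydrogen peroxide from superoxide, 2 fell and 1 rose. The log2 fold changes were -2.78 for FSD1, -1.25 for FSD2 and 0.77 for MSD1.

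Among genes of heme synthesis, 4 of 10 fell and 1 rose, with a median of -0.26, where 5.20% of all genes tested were called lower and 4.19% higher. PBGD1, porphobilinogen deaminase, fell by 0.73 and UROD1, uroporphyrinogen decarboxylase, fell by 0.69. FEC1, ferrochelatase, which inserts iron into protoporphyrin to make heme, rose by 0.61, with 51.5 ± 9.04 FPKM without added iron and 33.1 ± 0.319 FPKM with 1.5 µM iron (SD, n = 3 each; limma adjusted p = 0.0271). Of 9 glutaredoxin-domain genes 1 rose, DsB_g00693 by 1.03, and 1 fell, GRX6 by 0.42. Of 40 thioredoxin-domain genes, a list that shares DsB_g00693 with the glutaredoxins, 5 rose and 4 fell. NTRC1, a thioredoxin reductase with its own thioredoxin domain, rose by 1.30 and RB60, known in Chlamydomonas as a protein disulfide isomerase, by 1.25, whereas APSR1, an adenylylsulfate reductase, fell by 2.90 and TRXF2B by 0.71. Of the 22 tested glutathione S-transferase genes, 2 rose, CPLD58B by 0.86 and CPLD58A by 0.82, and 2 fell, GST8A by 0.46 and DsB_g20608 by 0.36. The single gene with another peroxidase domain, DsB_g21548, did not pass, with a log2 fold change of 0.06. Over all the related lists, 22 called genes are named, and for 12 of them the call was lost in at least 1 alternative. These 12 were PRX1, PRX2, VTC2, FEC1, PBGD1, UROD1, GRX6, TRXF2B, CPLD58A, CPLD58B, GST8A and DsB_g20608. The call held in all 14 alternatives for 10, among them MDAR1, PRX4, MSD1, FSD1 and FSD2.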

How the data were processed

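Poly(A) RNA of 6 cultures was sequenced with single-end 50 nt reads, aligned with STAR (2.4.0j) and quantified as FPKM with Cuffdiff (2.0.2), per the labels and the submitters' processing notes. The deposited FPKM values were computed by the authors per gene and library on their own assembly. Coordinates are those of the authors' deposited annotation, version 1.1, and count from 1. The sources used here do not say how reads mapping to several places were treated.

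Genes whose mean over the 6 libraries reached 1 FPKM were tested on log2(FPKM + 1) with limma 3.58.1 in R 4.3.3 (group term, mean-variance trend, Benjamini-Hochberg over all 13909 genes, two-sided, threshold 0.05). The fit was tested on simulated data with independent noise per gene and no shift between libraries, so the scaling was not tested there. Low FPKM values were searched for the step of 1 read (exons above 400 nt, single transcripts). Within a tolerance of 0.05, only 32.4% to 41.3% of the values below 10 reads came out whole, so no count model was run and read numbers are estimates. Ratios used exact permutation tests. Python 3.11.15, numpy 2.4.6, pandas 2.3.3, scipy 1.17.1 and matplotlib 3.10.9 were used. No reference sequence was used, and 0 locus tags of another strain's gene table matched.

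All 8 members are named. From each related list the 2 largest called rises and falls are named, and the 5 genes most like APX1A. Members and lists were chosen with earlier results of these data known. The cultures were separate flasks. The limma p-values set the difference between groups against the spread between flasks, moderated over all genes tested.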

Additional observations from a re-analysis of the deposited data

How the results depend on the processing

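APX1A, CAT1 and DsB_g22567 were called lower under all 14 alternatives: a pseudocount of 0.1, no filter or a filter at 0.1 FPKM, 3 scalings, the replicate block, replicates 1 and 2 only, and each library left out in turn. No other member was called, except in 2 settings. With columns rescaled to a sum of 1000000, DsB_g08011 was called higher beside these 3. With quantile normalization, GPX4 was called lower beside them. Over all genes, 1306 calls became 3736 with rescaled columns, 2148 with quantile normalization and 813 with the replicate block. Leaving out 1 library gave 586 to 1784 calls, with 736 and 586 without replicates 1 and 2 of no added iron, 1784 without its replicate 3, and 792, 667 and 691 without replicates 1, 2 and 3 of added iron. GPX3 changed sign without replicate 1 of no added iron, at -0.0089, and over all single libraries left out it ran from -0.0089 to 0.20; the cause was not tested. The labels give same-numbered libraries no shared source; their deviations from the group means correlated at 0.025, 0.078 and -0.135, and not every library correlated best with its own number, so the replicate block stayed an alternative. The low values of both replicate 3 libraries were alike in their share of whole reads, and a batch shared by number is not excluded. The block moved no member across the threshold. Depth limits DsB_g02754, with at most 2.45 estimated reads in a library.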
